A study of Mus musculus with 12 samples.

Results

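Aldehyde dehydrogenases oxidise aldehydes to carboxylic acids, and 10 genes of the family were followed here in a mouse lung tumour cell line: Aldh1a1, Aldh1a2, Aldh1a3, Aldh1a7, Aldh1b1, Aldh2, Aldh3a1, Aldh3a2, Aldh7a1 and Aldh9a1. They were chosen by name, and all 10 were measured, out of 18194 genes in all. They were read by 19 of the 45101 probe sets of an Affymetrix mouse array, counting each probe set that the annotation pairs with 1 of these genes alone. For each gene the probe set with the highest mean over the 12 arrays, its lead probe set, carries the values below.

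The cells were A2C12, a line grown from a lung tumour of mice that carry both a c-myc and a c-raf transgene, on a C57BL/6 background. Sorting by flow cytometry gave the cells that exclude the DNA dye Hoechst, known as the side population (SP), and the other cells (non-SP). The 4 groups were SP and non-SP cells after 48 h with a monoclonal antibody to the epithelial adhesion protein EpCAM at 100 µg/ml, and SP and non-SP cells without it, with 3 biological replicates each. All 4 groups carry the 2 transgenes and come from a single line, and no normal lung cell was among them. Levels are log2 values from RMA, a summary of the probes of a probe set, so that a difference of 1 is a 2-fold difference. The labels do not say which SP and non-SP arrays came from the same culture. The SP and the non-SP array that share a replicate number and a treatment are called a culture below, since their values deviated from their group means together. What they shared beyond that, such as a sort or an array batch, is not given.

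The family is known for clearing reactive aldehydes that arise from alcohol, lipid peroxidation and amino acids, and some members make retinoic acid, the active form of vitamin A, from retinaldehyde. Aldehyde dehydrogenase activity, measured with a fluorescent substrate, is widely used beside dye exclusion to sort tumour cells with stem-like properties, and in lung cancer work that activity is often attributed to the human counterparts of Aldh1a1 and Aldh3a1. The Aldh1 members and Aldh3a1 are mainly cytosolic, while Aldh2 and Aldh1b1 act in mitochondria.

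Aldh1a1 and Aldh1a7 are a pair of neighbouring genes on mouse chromosome 19, and their array levels moved together in these cells. The 250 bases before a RefSeq start of each gene are shown to let the likeness of the pair be seen. They read, 5′ to 3′ on the strand of the gene, at chr19:20601718-20601967 (plus strand, the downstream one of 2 RefSeq starts) and chr19:20727557-20727806 (minus strand) of build GRCm38.p6. Capitals mark the run of 65 bases that both share without a mismatch.
Aldh1a1: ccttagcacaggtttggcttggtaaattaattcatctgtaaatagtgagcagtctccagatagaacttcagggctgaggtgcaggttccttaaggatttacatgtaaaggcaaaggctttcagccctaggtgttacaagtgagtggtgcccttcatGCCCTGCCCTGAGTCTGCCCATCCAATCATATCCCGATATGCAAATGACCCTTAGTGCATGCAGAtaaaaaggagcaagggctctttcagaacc
Aldh1a7: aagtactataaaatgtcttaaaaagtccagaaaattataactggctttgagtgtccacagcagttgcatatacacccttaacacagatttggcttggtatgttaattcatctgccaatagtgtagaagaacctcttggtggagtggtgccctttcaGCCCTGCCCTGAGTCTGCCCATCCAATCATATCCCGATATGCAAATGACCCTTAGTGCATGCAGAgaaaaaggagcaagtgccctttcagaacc
Of the aligned bases, 185 of 228 were identical (81.1%), with gaps left out of the count. The Aldh1a1 start shown was picked as the one of the 2 more like Aldh1a7. Over windows of 300 bases it gave 83.8% with 44 gap positions, and the other start gave 78.7% with 112. The motif CCAAT, searched as these exact letters on both strands, occurred 1 time in the Aldh1a1 window and 2 times in the Aldh1a7 window, and 33.8% of 32851 RefSeq windows of this length held it. The data hold no measurement on these promoters, so the likeness is a description of sequence only.

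Before the members, the arrays and the cells need a short account. Array medians lay between 5.72 and 6.06. The arrays of anti-EpCAM culture 2 stood apart in the signal of actin 3′ over 5′ probes, a sign of RNA quality, with a log2 difference of 1.03 for SP and 0.895 for non-SP against 0.183 to 0.733 on the other 10 arrays. Olfactory receptor genes served as a rough guide to signal without a transcript: the means of 39 such genes ran from 3.64 to 5.78 (5th to 95th percentile). Above that range lay 4 of 5 epithelial markers, among them Krt8 at 8.77 and Epcam at 8.11 (on a probe set of the x_at kind, which can take up related transcripts), all 5 fibroblast markers, among them Col1a2 at 12.6, 2 of 4 alveolar type II markers and 2 of 5 macrophage markers. Those 2 macrophage markers were Csf1r at 9.98 and Cd68 at 7.33. Of 4 endothelial markers 1 lay above that range, Kdr at 6.70. None of the 3 club cell markers lay above it, with Scgb1a1 at 4.84, and the pan-leukocyte gene Ptprc was at 3.42. The cells thus carried epithelial transcripts together with collagen transcripts.

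No gene passed the test in any comparison, so the members are described by their levels, intervals and spread. With limma and a Benjamini-Hochberg adjusted p under 0.05, the share of the 18194 genes called was 0% for SP against non-SP in anti-EpCAM cells, in untreated cells and over both, 0% for anti-EpCAM against untreated in SP and in non-SP cells, and 0% for the interaction. At an unadjusted p under 0.05 the counts were 127, 4, 19, 835, 585 and 43 genes in this order, and no member was among them in any of the 6. With culture as a block, which can be fitted where fractions are compared, 0 genes passed as well, with 1311, 305, 388 and 1003 genes at an unadjusted p under 0.05 for anti-EpCAM cells, untreated cells, both and the interaction. Aldh3a1 in untreated cells was then the 1 member among them, as given below.

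Of the members, 6 had a mean above the olfactory receptor range: Aldh1a3 at 8.001, Aldh2 at 11.01, Aldh3a1 at 11.86, Aldh3a2 at 9.20, Aldh7a1 at 9.22 and Aldh9a1 at 11.45. The other 4 lay inside it, Aldh1a1 at 5.00, Aldh1a2 at 4.70, Aldh1a7 at 5.02 and Aldh1b1 at 5.19. Their array values therefore do not show by themselves that a transcript was present. Levels of different probe sets depend on the probes and are not ranked against each other.

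**Figure D1:**
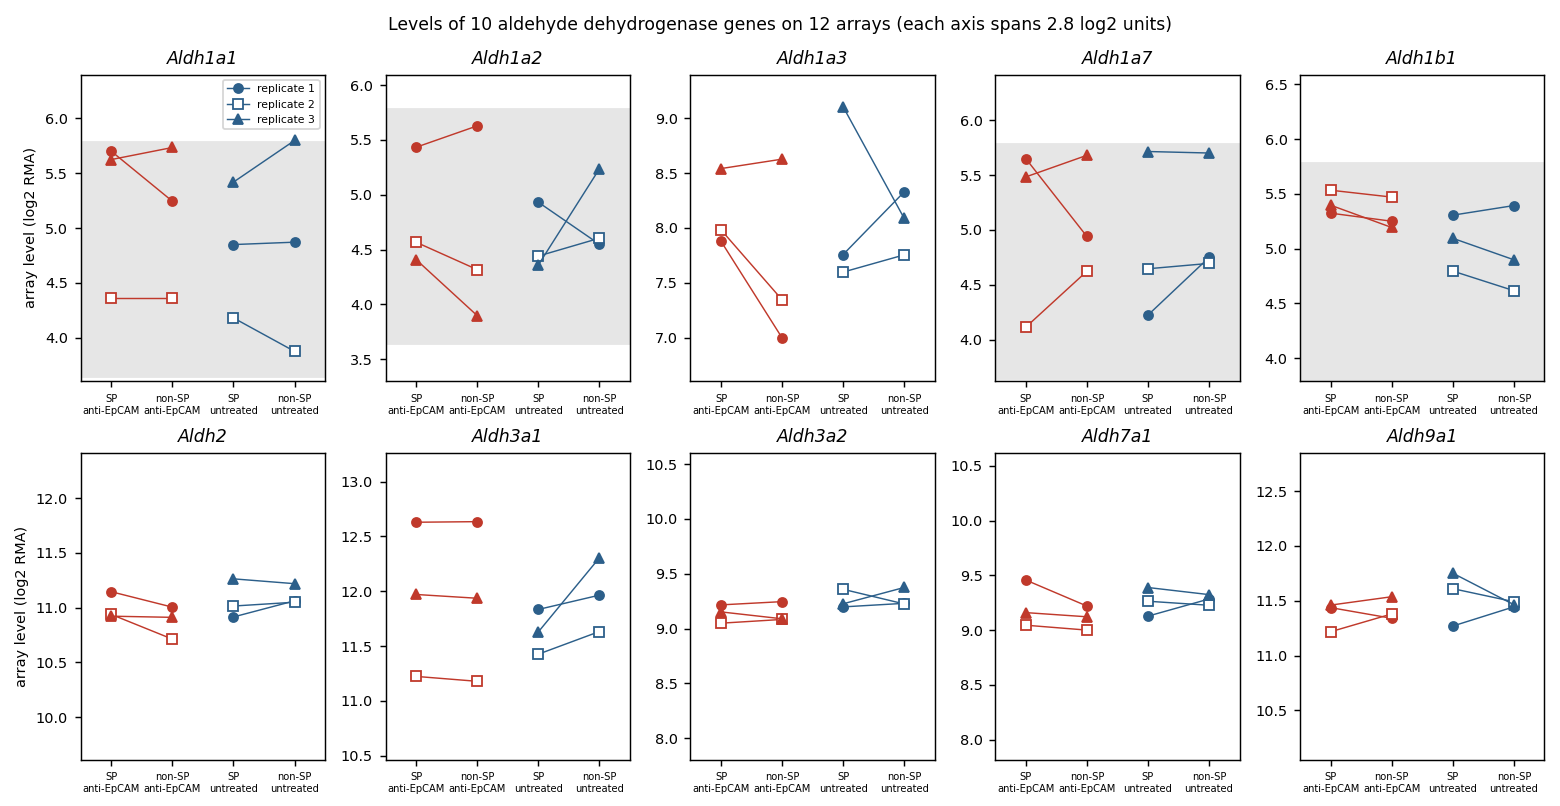
Array level (log2 RMA) of the lead probe set of each of the 10 genes, 1 panel a gene, with groups on the horizontal axis and 1 point an array (red, anti-EpCAM; blue, untreated). Marker shape gives the replicate number, lines join the SP and non-SP array of a culture, the grey band is the olfactory receptor range of 3.64 to 5.78, and all vertical axes span the same number of log2 units: cultures lie apart for Aldh1a1, Aldh1a7 and Aldh3a1, while the points of Aldh3a2, Aldh7a1 and Aldh9a1 stay close together.

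The retinaldehyde dehydrogenases come first. Aldh1a1 (probe set 1416468_at), which oxidises retinaldehyde and many other aldehydes in the cytosol, had levels of 5.70, 4.36 and 5.63 in SP and 5.24, 4.36 and 5.74 in non-SP cells after anti-EpCAM, and of 4.85, 4.18 and 5.42 in SP and 4.87, 3.87 and 5.80 in non-SP cells without it. Replicate 2 was lowest in each of the 4 groups, and every pair of groups overlapped. SP minus non-SP was 0.12 (95% interval -0.99 to 1.22) after anti-EpCAM and -0.03 (-1.14 to 1.08) in untreated cells. Anti-EpCAM minus untreated was 0.41 (-0.70 to 1.52) in SP and 0.26 (-0.85 to 1.37) in non-SP cells, and limma's adjusted p was 0.988 or above in all 4. With culture as a block the fraction intervals were -0.23 to 0.46 after anti-EpCAM and -0.38 to 0.32 in untreated cells, inside a 2-fold difference either way. As the mean of Aldh1a1 lies inside the olfactory receptor range, its intervals bound the array signal and may not bound the transcript. The intervals of the treatment differences, which have no such pairing, hold a doubling, so an increase of that size after antibody was not excluded for Aldh1a1. In a bulk sample, fewer cells that express a gene and less RNA per cell cannot be told apart, here and for every member.

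Aldh1a7 (1418601_at), a rodent relative of Aldh1a1, had levels of 5.65, 4.11 and 5.48 in SP and 4.94, 4.62 and 5.68 in non-SP cells after anti-EpCAM, and of 4.22, 4.65 and 5.72 in SP and 4.75, 4.69 and 5.70 in non-SP cells without it. Replicate 3 lay at 5.48 or above in all 4 groups, and the groups overlapped. SP minus non-SP was 0.00 (-1.005 to 1.007) after anti-EpCAM and -0.19 (-1.19 to 0.82) in untreated cells. Anti-EpCAM minus untreated was 0.22 (-0.78 to 1.23) in SP and 0.03 (-0.97 to 1.04) in non-SP cells. Over the 12 arrays Aldh1a7 and Aldh1a1 correlated at a Pearson r of 0.826 and a Spearman rho of 0.806, and at 0.836 when each array was taken as its deviation from its group mean. Arrays of one culture are not independent points, and whether the 2 probe sets pick up each other's transcript was not tested.

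Aldh1a2 (1422789_at), which makes retinoic acid in the embryo and in mesenchymal cells, had levels of 5.43, 4.57 and 4.41 in SP and 5.63, 4.32 and 3.90 in non-SP cells after anti-EpCAM, and of 4.93, 4.44 and 4.36 in SP and 4.55, 4.60 and 5.24 in non-SP cells without it. The 2 highest of the 6 treated arrays were those of culture 1, and the groups overlapped. The 4 differences ran from -0.22 to 0.23, each with a standard error of 0.40.

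Aldh1a3 (1448789_at), the third enzyme of retinoic acid synthesis and often named in lung cancer cells sorted for aldehyde dehydrogenase activity, was the 1 gene of these 4 with a mean above the olfactory receptor range. It had levels of 7.88, 7.98 and 8.54 in SP and 6.997, 7.34 and 8.63 in non-SP cells after anti-EpCAM, and of 7.76, 7.60 and 9.11 in SP and 8.33, 7.75 and 8.09 in non-SP cells without it. The fractions differed by 1.02 in untreated culture 3 and by 0.88 in anti-EpCAM culture 1, but by -0.57 in untreated culture 1, so that the direction was not shared. SP minus non-SP averaged 0.48 (-0.46 to 1.41) after anti-EpCAM and 0.10 (-0.84 to 1.03) in untreated cells, with a limma adjusted p of 1 for both. The other 2 probe sets of Aldh1a3 gave -0.10 and -0.06 after anti-EpCAM, opposite in sign to the lead probe set, and 0.01 and 0.06 in untreated cells. Anti-EpCAM minus untreated was -0.02 (-0.95 to 0.92) in SP cells and -0.40 (-1.33 to 0.53) in non-SP cells by the lead probe set.

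The mitochondrial members varied less. Aldh2 (1448143_at), the main enzyme of acetaldehyde clearance, had levels of 11.15, 10.94 and 10.92 in SP and 11.005, 10.71 and 10.91 in non-SP cells after anti-EpCAM, and of 10.92, 11.01 and 11.26 in SP and 11.06, 11.05 and 11.22 in non-SP cells without it. In SP cells the treated and untreated arrays overlapped, with a difference of -0.06 (-0.40 to 0.27). In non-SP cells all 3 treated arrays lay below all 3 untreated ones, with a difference of -0.23 (-0.57 to 0.10) and a limma adjusted p of 0.988. Of the 4 other probe sets of Aldh2, 3 lay above the olfactory receptor range and had the sign of the lead in non-SP cells, at -0.19, -0.04 and -0.25. The fourth, with a mean of 5.66 inside that range, was at 0.26. Between fractions Aldh2 differed by 0.13 (-0.21 to 0.46) after anti-EpCAM and by -0.05 (-0.38 to 0.29) in untreated cells, and neither interval holds a 2-fold difference.

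Aldh1b1 (1451260_at), a mitochondrial relative of the Aldh1a enzymes, had levels of 5.32, 5.53 and 5.40 in SP and 5.25, 5.47 and 5.19 in non-SP cells after anti-EpCAM, and of 5.31, 4.80 and 5.09 in SP and 5.39, 4.62 and 4.90 in non-SP cells without it. In SP cells the 3 treated arrays lay above the 3 untreated ones, by 0.01 at the closest after rounding, and in non-SP cells they overlapped. Anti-EpCAM minus untreated was 0.35 (-0.09 to 0.80) in SP and 0.34 (-0.11 to 0.78) in non-SP cells, with limma adjusted p values of 1 and 0.988. SP was above non-SP in 5 of 6 cultures, by at most 0.20, the exception being untreated culture 1 at -0.09.

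Among the members that act on lipid and aromatic aldehydes, Aldh3a1 varied most between cultures. Aldh3a1 (1418752_at), a cytosolic enzyme that the aryl hydrocarbon receptor is known to induce, had levels of 12.63, 11.22 and 11.97 in SP and 12.64, 11.18 and 11.94 in non-SP cells after anti-EpCAM, and of 11.83, 11.43 and 11.63 in SP and 11.96, 11.63 and 12.30 in non-SP cells without it. After anti-EpCAM the 3 cultures lay far apart while the fractions of each culture nearly coincided, at SP minus non-SP of -0.01, 0.04 and 0.03. In untreated cells SP was lower in all 3 cultures, at -0.13, -0.21 and -0.68. The mean of -0.34 had an interval of -1.14 to 0.47 and a limma adjusted p of 1 without a culture block. With culture as a block the interval was -0.61 to -0.07, with an unadjusted p of 0.0203 and an adjusted p of 1, so Aldh3a1 did not pass the test. In the untreated culture with the widest difference, culture 3, actin 3′ over 5′ was 0.733 on the SP array and 0.404 on the non-SP array, and its part in the difference was not tested.

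The lowest Aldh3a1 arrays, 11.22 and 11.18, were those of anti-EpCAM culture 2, in which actin 3′ over 5′ was highest. Aldh1a1 in that culture was also the lowest of the treated arrays, at 4.36 on both, and Aldh1a7 at 4.11 and 4.62. In untreated culture 2 Aldh1a1 was lower still, at 4.18 in SP and 3.87 in non-SP cells. Actin 3′ over 5′ there was 0.396 and 0.300. Without anti-EpCAM culture 2, a choice made after seeing the data, anti-EpCAM minus untreated was 0.67 in SP and 0.32 in non-SP cells for Aldh3a1, against 0.31 and -0.05 with it. For Aldh1a1 it was 0.85 in SP and 0.64 in non-SP cells, against 0.41 and 0.26 with the culture. For Aldh1a7 it was 0.71 and 0.26, against 0.22 and 0.03. Both of these lie inside the olfactory receptor range. No gene was called without the culture, and its part in these differences beyond these values was not tested.

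Aldh3a2 (1415776_at), the fatty aldehyde dehydrogenase of the endoplasmic reticulum and the chromosomal neighbour of Aldh3a1, was among the steadiest genes of the array. It had levels of 9.22, 9.05 and 9.15 in SP and 9.25, 9.08 and 9.09 in non-SP cells after anti-EpCAM, and of 9.20, 9.36 and 9.23 in SP and 9.23, 9.22 and 9.37 in non-SP cells without it. All 12 values lay between 9.05 and 9.37. SP minus non-SP was -0.00036 (-0.30 to 0.30) after anti-EpCAM and -0.02 (-0.31 to 0.28) in untreated cells, and anti-EpCAM minus untreated was -0.12 (-0.42 to 0.18) in SP and -0.14 (-0.43 to 0.16) in non-SP cells. Each of these intervals stayed inside a 2-fold difference either way.

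Aldh7a1 and Aldh9a1 act in amino acid and carnitine metabolism. Aldh7a1 (1460167_at), which oxidises an intermediate of lysine breakdown, had levels of 9.46, 9.04 and 9.16 in SP and 9.22, 9.0001 and 9.12 in non-SP cells after anti-EpCAM, and of 9.13, 9.26 and 9.39 in SP and 9.28, 9.23 and 9.32 in non-SP cells without it. In SP cells the treated and untreated arrays overlapped, at -0.04 (-0.37 to 0.29). In non-SP cells the treated ones lay below the untreated ones, with a difference of -0.16 (-0.50 to 0.17) and a limma adjusted p of 0.988. SP was above non-SP in 5 of 6 cultures for Aldh7a1, by 0.04 to 0.24, and lower by 0.16 in untreated culture 1. Its other 2 probe sets had means of 5.23 and 3.85, inside the olfactory receptor range, and nothing is drawn from their differences.

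Aldh9a1 (1436689_a_at), which serves carnitine synthesis, had levels of 11.44, 11.22 and 11.46 in SP and 11.34, 11.38 and 11.54 in non-SP cells after anti-EpCAM, and of 11.27, 11.61 and 11.75 in SP and 11.44, 11.49 and 11.46 in non-SP cells without it. The groups overlapped in every comparison. Its differences ran from -0.17 to 0.08, each with a standard error of 0.16. The other Aldh9a1 probe set (1437398_a_at), with a mean of 9.90, had the opposite sign in 3 of the 4 comparisons. It gave SP minus non-SP of 0.09 after anti-EpCAM, against -0.05 by the lead, and of -0.07 in untreated cells, against 0.08. For anti-EpCAM minus untreated it gave 0.08 in SP cells, against -0.17, and -0.08 in non-SP cells, against -0.05.

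**Figure D2:**
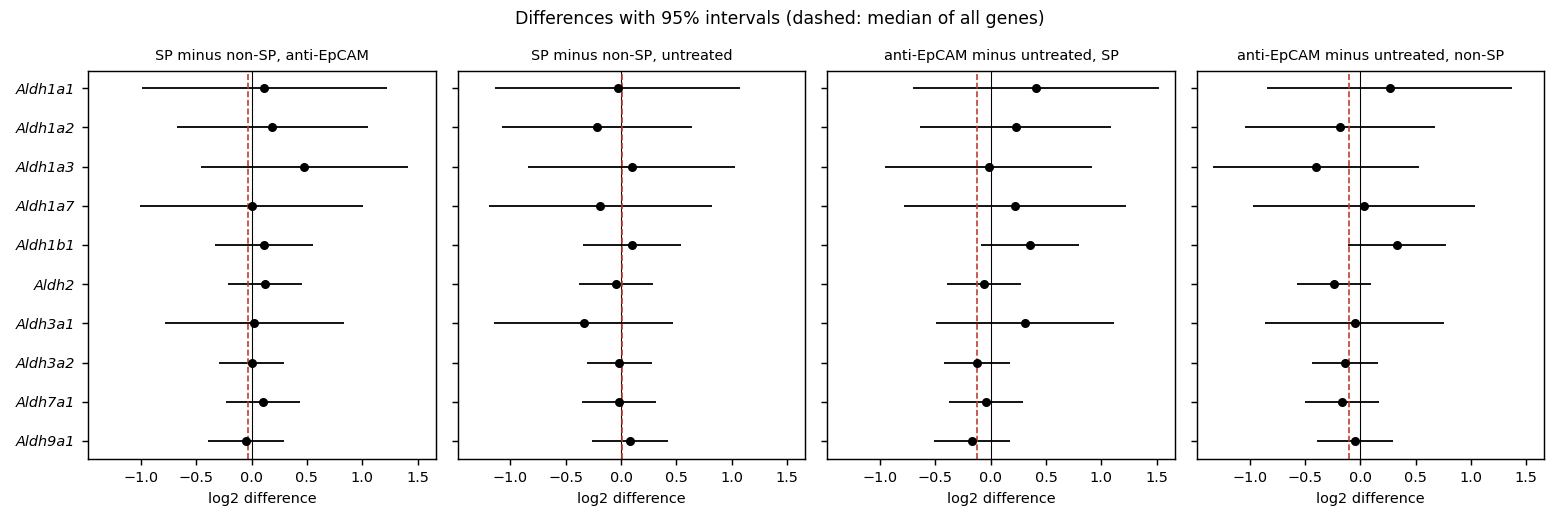
Log2 difference of each member (points) with its 95% interval from the limma fit (lines), in 4 panels for SP minus non-SP after anti-EpCAM and in untreated cells, and for anti-EpCAM minus untreated in SP and in non-SP cells; the dashed line is the median of all 18194 genes. Each interval includes 0, and those of Aldh1a1, Aldh1a2, Aldh1a3, Aldh1a7 and Aldh3a1 are wider than those of the other 5.

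The median difference over the 10 members was 0.11 for SP minus non-SP after anti-EpCAM and -0.03 in untreated cells, beside medians of -0.03 and 0.01 over all genes, and 9 of 10 members after anti-EpCAM and 3 of 10 in untreated cells lay above that median. For anti-EpCAM minus untreated the members' median was 0.10 in SP and -0.09 in non-SP cells, beside -0.12 and -0.10 over all genes. No member had SP and non-SP arrays without overlap, where 2.35% of all genes did after anti-EpCAM and 2.37% in untreated cells. Between treatments 1 member in SP cells (Aldh1b1, above) and 2 in non-SP cells (Aldh2 and Aldh7a1, below) had no overlap, where 8.47% and 7.8% of all genes did. Counts this small among 10 genes cannot be told apart from those background shares. No member had 1 sign of SP minus non-SP in all 6 cultures, as 1.47% of all genes had.

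The signs of the small treatment differences hang on the scaling of the arrays. With the median of every array set to 0, the median difference of all genes moved from -0.12 to 0.08 in SP cells and from -0.10 to 0.04 in non-SP cells. The members above 0 in SP cells then numbered 10 of 10, instead of 5 of 10 as deposited, and in non-SP cells 6 of 10 instead of 3 of 10. Of all 18194 genes, 12342 were then above 0 in SP cells, instead of 3935, and 10776 in non-SP cells, instead of 5298. Set against the median of all genes as deposited, 8 of 10 members lay above it in SP and 5 of 10 in non-SP cells. The interaction, the fraction difference after anti-EpCAM minus that in untreated cells, was positive for 9 of 10 members, from -0.12 to 0.41, with a limma adjusted p of 1 for each. It was positive for 7941 of the 18194 genes. The members were read on the same arrays, so their signs are not independent, and these counts were not tested.

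The intervals bound what these arrays can show, and for the fractions they depend on whether the pairing within cultures is used. Without a culture block, the interval of both fraction differences stayed within 2-fold either way for Aldh1b1, Aldh2, Aldh3a2, Aldh7a1 and Aldh9a1. Over both treatments together it did so for all 10 members, as it did for 99.3% of all genes. In untreated cells alone it did so for 5 of 10 members and 96.5% of all genes, and the other 5 are the members that varied between cultures. With culture as a block it did so for 9 of 10 members after anti-EpCAM and for 10 of 10 in untreated cells, beside 98.6% and 99.6% of all genes. The exception was Aldh1a3 after anti-EpCAM, at -0.17 to 1.13. These counts include Aldh1a1, Aldh1a2, Aldh1a7 and Aldh1b1, whose means lie inside the olfactory receptor range. For them the intervals bound the array signal and may not bound the transcript.

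The members differed in how much they varied between cultures. The SD between culture means of 1 treatment was 0.752 for Aldh1a1, 0.647 for Aldh1a7, 0.541 for Aldh1a3, 0.533 for Aldh3a1 and 0.524 for Aldh1a2, against a median of 0.236 over all genes. For Aldh2, Aldh7a1, Aldh9a1 and Aldh3a2 it was 0.131, 0.126, 0.117 and 0.0682. By their SD over the 12 arrays the first 5 exceeded at least 94.7% of all genes, while Aldh3a2 exceeded only 1.44%, Aldh7a1 6.43%, Aldh9a1 8.68% and Aldh2 10.3%. Aldh1b1 lay between these sets, above 59.1% of genes.

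The 5 variable members include probe sets of high signal (Aldh3a1, Aldh1a3) and of low signal. Among genes within 0.5 log2 units of its own mean, Aldh3a1 varied more than 98.4%, and Aldh1a3 more than 97.9%. Aldh9a1 varied more than 17.6% of the genes at its level, and Aldh2 more than 18.7%. For Aldh1a1 and Aldh1a7, inside the olfactory receptor range, the shares were 99.1% and 97.7%, and for Aldh1b1, inside it too, 32.9%.

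**Figure D3:**
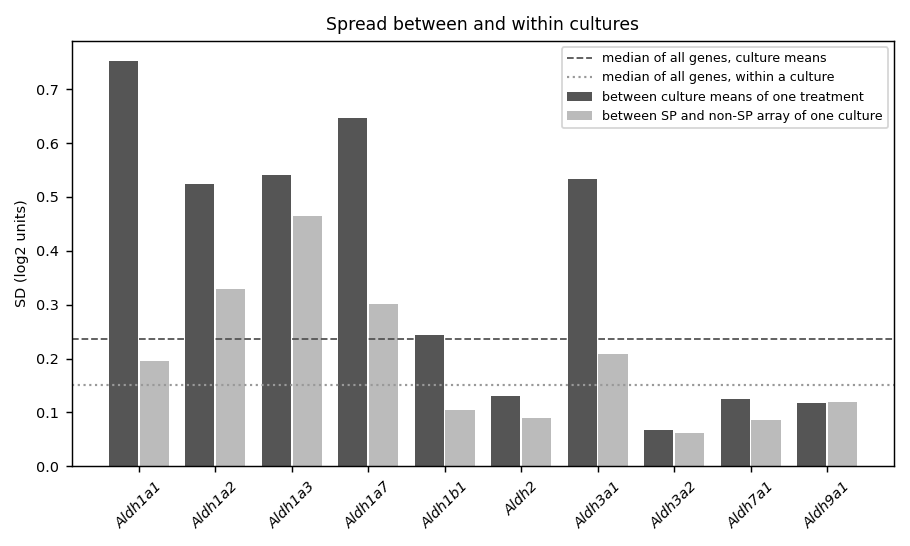
Standard deviation (log2 units) of each member between the culture means of 1 treatment (dark bars) and within a culture, over its SP and non-SP arrays (light bars), with the medians of all genes at 0.236 (dashed) and 0.150 (dotted). The dark bars of Aldh1a1, Aldh1a2, Aldh1a3, Aldh1a7 and Aldh3a1 are above 0.5, and those of Aldh2, Aldh3a2, Aldh7a1 and Aldh9a1 are below 0.14.

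Within a culture the SP and non-SP arrays were much closer for some members than for others. The SD within a culture was 0.195 for Aldh1a1 and 0.208 for Aldh3a1, smaller than between cultures by a factor of 3.85 and 2.56, where the median gene had 1.58. For Aldh1a3 the SD within a culture was 0.464, at a factor of 1.17, below that of the median gene. These factors set an SD of means of 2 arrays against an SD of single arrays. A factor of 1 therefore does not mark equal spread, and the factors are read only against the median gene. The level of Aldh1a1 was equal to every deposited digit on the SP and non-SP arrays of anti-EpCAM culture 2, as it was for 914 of 45101 probe sets there and for 1154 to 2000 in the other cultures.

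Among the 45 pairs of members, correlations over the 12 arrays ran from -0.68 (Aldh1b1 and Aldh3a2) to 0.898 (Aldh2 and Aldh7a1), with a median of 0.393 and 33 above 0. The Aldh2 and Aldh7a1 arrays ranked alike (rho 0.93) within a range of under 1 log2 unit for each, and their deviations from the group means correlated at 0.871. Aldh3a1 went with Aldh1a2 at 0.725 and with Aldh1a1 at 0.706. All of these points share cultures and array scaling.

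**Figure D4:**
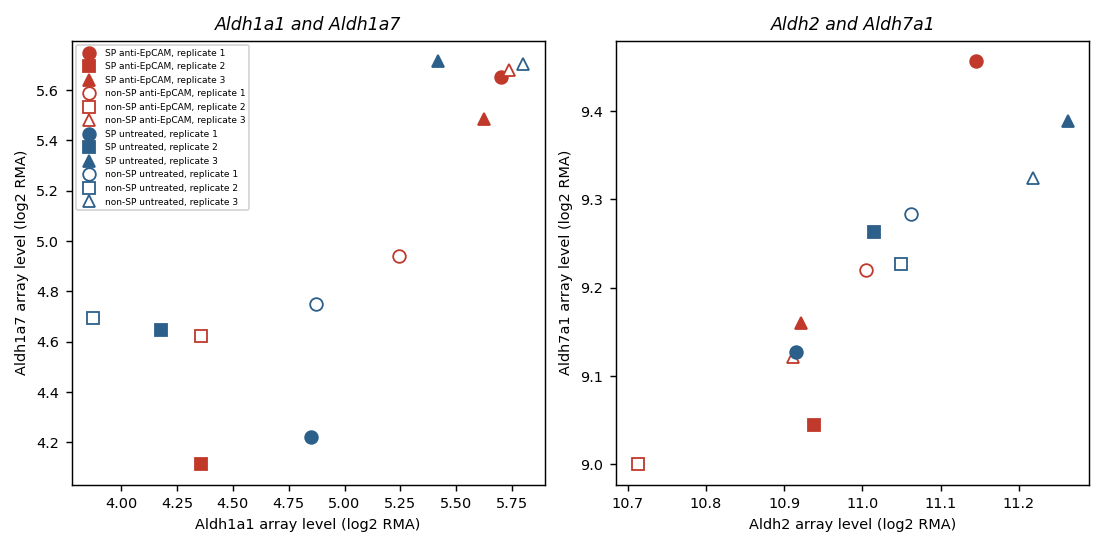
Array levels (log2 RMA) of Aldh1a7 against Aldh1a1 (left) and of Aldh7a1 against Aldh2 (right), 1 point an array, with red for anti-EpCAM, blue for untreated, filled for SP and open for non-SP, and shape for the replicate number. Pearson r was 0.826 on the left and 0.898 on the right over 12 arrays in 6 cultures, and arrays of replicate 3 sit at the upper right for Aldh1a1 and Aldh1a7.

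Aldh1a1 and Aldh1a7 were also the 2 members with the largest SD over the arrays. Of the 13924 genes with a mean level of 5 or more, those most like Aldh1a1 by Pearson r over the 12 arrays were Lgals2 (0.901), Cks1b (0.895) and Fam72a (0.895). Most like Aldh1a7 were Alad (0.928), Cdc20 (0.927) and Knl1 (0.922). These genes were picked as the highest of 13924 values, over arrays that share cultures, so a high r follows in part from the choice. Both members lie inside the olfactory receptor range. Among the genes picked, Cks1b, Cdc20 and Knl1 are known for roles in cell division, and nothing on shared control was measured.

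The remaining aldehyde dehydrogenases gave no call either. All 10 listed genes were measured, and 9 of 10 were below 0 for anti-EpCAM minus untreated in SP cells and 9 of 10 in non-SP cells, with medians of -0.16 and -0.17. Of all genes, 78.4% and 70.9% were below 0. Centred arrays turned this to 3 and 5 of 10 below 0. The lowest was Aldh4a1, a mitochondrial enzyme of proline breakdown, with levels of 6.62, 6.63 and 6.99 in SP cells after anti-EpCAM and of 7.43, 7.23 and 7.62 in untreated SP cells. These groups did not overlap, and the difference of -0.68 ± 0.17 (SE) had an unadjusted p of 0.00146 and a limma adjusted p of 0.877. In non-SP cells Aldh4a1 differed by -0.29, and with centred arrays by -0.48 in SP and -0.15 in non-SP cells. Aldh8a1, which acts on retinaldehyde and on tryptophan metabolites, was at -0.63 in SP and -0.01 in non-SP cells. The other 8 listed genes lay between -0.42 and 0.09 in both fractions.

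Genes that bind, make, break down or sense retinoic acid were measured for 20 of 23 names, and 0 passed the test in either direction in any comparison. For anti-EpCAM minus untreated, 1 of the 20 in SP and 4 of the 20 in non-SP cells had an unadjusted p under 0.05, all of them below 0. Of all genes, 835 and 585 had such a p, of which 815 and 491 were below 0. With centred arrays 1 of the 20 in each fraction had one, beside 458 of all genes in SP and 648 in non-SP cells. In SP cells it was Rarb, and in non-SP cells it was neither Rarb nor Crabp2. Rarb, a retinoic acid receptor whose gene is itself a known target of retinoic acid, had levels of 4.44, 4.19 and 4.91 in SP and 4.39, 4.82 and 4.68 in non-SP cells after anti-EpCAM, and of 4.83, 5.99 and 5.86 in SP and 5.12, 5.73 and 5.41 in non-SP cells without it. The non-SP groups did not overlap, while in SP cells 1 untreated array lay below the highest treated one. The difference was -1.04 ± 0.29 (SE, limma adjusted p 0.989) in SP and -0.79 (adjusted p 0.988) in non-SP cells, or -0.85 and -0.65 with centred arrays. Its mean of 5.03 lies inside the olfactory receptor range.

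Dhrs3, a retinaldehyde reductase also induced by retinoic acid, differed by -0.44 in SP and -0.50 in non-SP cells for the same comparison, or by -0.25 and -0.36 with centred arrays. The retinoic acid hydroxylases Cyp26a1 and Cyp26b1 differed by -0.40 and -0.29 in SP cells and by 0.09 and -0.22 in non-SP cells, and with centred arrays Cyp26b1 differed by -0.10 and -0.08. Crabp2, a retinoic acid carrier, was at -0.24 in SP and -0.35 in non-SP cells, or -0.04 and -0.21 with centred arrays. Its array levels, from 5.18 to 5.67, lay inside the olfactory receptor range. Rdh10, which makes retinaldehyde from retinol, was at -0.01 in SP and -0.23 in non-SP cells, or 0.19 and -0.09 with centred arrays. The receptors Rara and Rarg, the carriers Crabp1 and Fabp5, and the retinol transporter Stra6 lay between -0.27 and 0.16 in both fractions. The median over the 20 was -0.16 in SP and -0.15 in non-SP cells, close to all genes at -0.12 and -0.10, and with centred arrays it was 0.03 and -0.0043.

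Alcohol dehydrogenases, aldo-keto and carbonyl reductases, which compete for the same aldehydes or supply them, were measured for 10 of 13 names with 0 called. Adh1, a retinol and ethanol dehydrogenase, differed by -0.71 in SP cells and 0.06 in non-SP cells for anti-EpCAM minus untreated. With centred arrays the differences were -0.51 and 0.20. As deposited, the limma adjusted p was 1 in SP cells, and most Adh1 array levels lay inside the olfactory receptor range. Adh5, Adh7, Akr1a1, Akr1b8 and Cbr1 lay between -0.26 and 0.11. Of the aryl hydrocarbon receptor genes 8 of 10 were measured with 0 called. Cyp1a1, its best known target, was at 0.62 in SP and 0.12 in non-SP cells, and Nqo1 at 0.11 and -0.32. Ahr, the receptor itself, and its targets Cyp1b1 and Tiparp lay between -0.18 and 0.22. Between untreated fractions 7 of the 8 were below 0, with a median of -0.11. Of all 18194 genes 8424 were below 0, with a median of 0.01. The 8 genes were read on the same arrays, and their count was not tested. Cyp1a1, whose mean of 5.17 lies inside the olfactory receptor range, had levels of 4.76, 4.56 and 5.11 in untreated SP cells and of 4.63, 4.41 and 6.45 in untreated non-SP cells. Its mean difference of -0.35 rests on the non-SP array of culture 3, and without that array, a choice made after seeing the data, it was 0.29. Nqo1 was at -0.18 with that array and 0.0025 without it, and Aldh3a1 at -0.34 with it and -0.17 without it. The SP array of culture 3 stayed in, so the level of that culture enters the values without its partner. By culture, SP minus non-SP was 0.13, 0.15 and -1.34 for Cyp1a1 and -0.39, -0.20 and 0.06 for Nqo1. In culture 3 Nqo1 was thus not lower in SP cells. For Aldh3a1 the differences by culture were -0.13, -0.21 and -0.68.

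**Figure D5:**
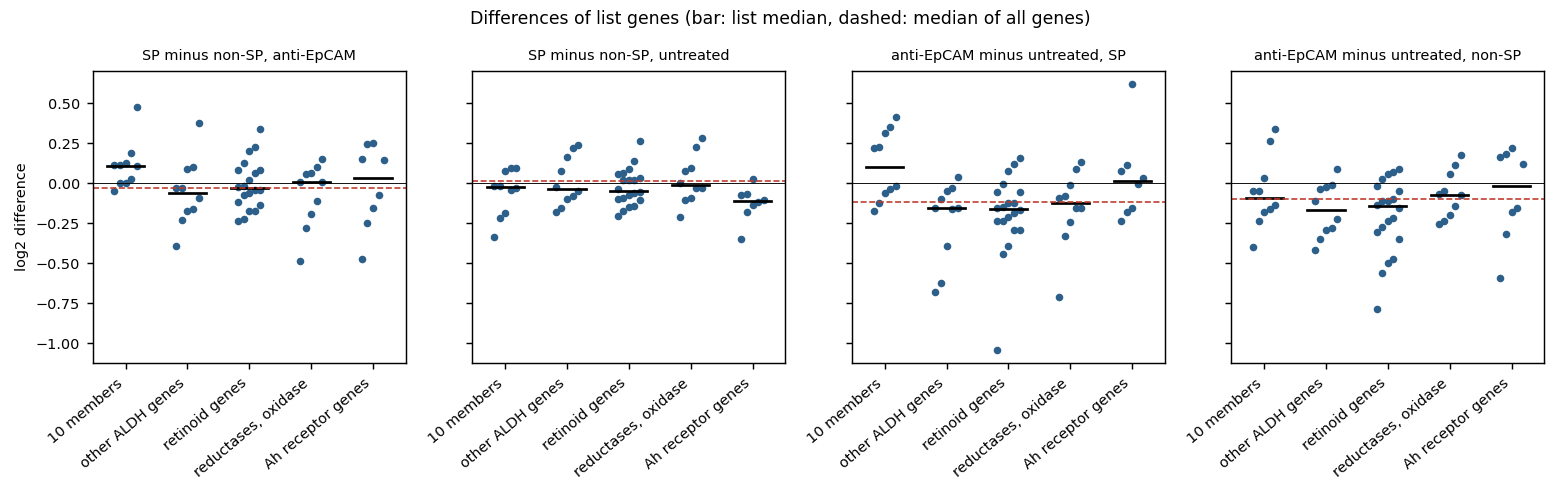
Log2 difference of each gene (points) of the 10 members and of 4 lists of related genes in 4 comparisons, with a bar at each list's median and a dashed line at the median of all genes. Most points lie within 0.5 of 0, and the lowest is Rarb, at -1.04 in SP and -0.79 in non-SP cells for anti-EpCAM minus untreated.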

How the data were processed

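Levels came from 12 arrays of sorted A2C12 cells, in groups taken from the labels. The deposited values are log2 values, which the authors made by RMA per the submitters' processing notes. The sources used here do not give the software, its version or any later scaling. Of 45101 probe sets, 34958 had 1 symbol in the platform annotation of 2016, giving 18194 genes by the highest mean over the arrays. The number of arrays limits the precision.

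Differences were fitted in R 4.3.3 with limma 3.58.1 (lmFit, eBayes without trend, 4 group means, 8 residual degrees of freedom), two-sided, with Benjamini-Hochberg adjustment over all genes and a threshold of 0.05. The procedure was tested on simulated data. Figures and sequences used Python 3.11.15, pandas 2.3.3, matplotlib 3.10.9 and Biopython 1.88, and promoter sequences are RefSeq's, which matched 6 of the 10 members.

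The members and lists were chosen with earlier results of these data known. Named are all members with every probe set, the other aldehyde dehydrogenases, fixed names of each list, any list gene past the threshold, and the 3 genes most like the 2 members of largest SD and Aldh1a1, at a mean of 5 or more.

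SP and non-SP arrays of 1 number and treatment were checked as pairs: their deviations from group means correlated at 0.55 to 0.844 in all 6, whereas those of anti-EpCAM and untreated arrays of 1 number lay between -0.379 and -0.00541. The alternatives were a replicate block, an intensity trend, centred arrays, a second quantile normalization, the mean of all probe sets, every probe set tested singly, a minimum level of 5, and each array left out.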

Additional observations from a re-analysis of the deposited data

How the results depend on the processing

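The count of genes called by limma was 0 in all 6 comparisons under every alternative run. For the members, 488 of 566 alternative values kept the sign, and none was called, with a lowest adjusted p of 0.628. Of the 78 that changed sign, 52 came from leaving out an array. The 488 include values that could not change sign. The replicate blocks, the intensity trend, the minimum level and the probe sets tested singly return the differences of the main fit. The count is therefore no measure of how stable the signs were. The replicate block gave the same differences as the fit without it, as in Aldh3a1 at -0.34 for SP minus non-SP in untreated cells, and no paired fit changed a call. Aldh1a2 has no value at a minimum level of 5. The small differences changed sign as follows. With each array centred on its median, SP minus non-SP after anti-EpCAM was 0.049 for Aldh3a2 and 0.0017 for Aldh9a1, and anti-EpCAM minus untreated in SP cells was 0.18 for Aldh1a3, 0.13 for Aldh2, 0.073 for Aldh3a2, 0.16 for Aldh7a1 and 0.023 for Aldh9a1, and anti-EpCAM minus untreated in non-SP cells was 0.091 for Aldh3a1, 0.0043 for Aldh3a2 and 0.094 for Aldh9a1. With a second quantile normalization, anti-EpCAM minus untreated in SP cells was 0.070 for Aldh1a3, 0.015 for Aldh2 and 0.044 for Aldh7a1, and anti-EpCAM minus untreated in non-SP cells was 0.048 for Aldh3a1, 0.0073 for Aldh3a2 and 0.051 for Aldh9a1. With the mean of all probe sets of a gene, SP minus non-SP after anti-EpCAM was -0.084 for Aldh7a1 and 0.020 for Aldh9a1, and SP minus non-SP in untreated cells was 0.021 for Aldh2 and 0.025 for Aldh7a1, and anti-EpCAM minus untreated in SP cells was 0.024 for Aldh2. Without anti-EpCAM culture 2, chosen after seeing the data, SP minus non-SP after anti-EpCAM was 0.017 for Aldh3a2 and 0.010 for Aldh9a1, and anti-EpCAM minus untreated in SP cells was 0.057 for Aldh1a3 and 0.048 for Aldh7a1, and anti-EpCAM minus untreated in non-SP cells was 0.32 for Aldh3a1.

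With each array left out in turn, 26 of the 40 member differences changed sign, and their lowest and highest values follow. In the fraction comparisons the partner array of the same culture stays in, so these ranges also hold the spread between cultures. Aldh3a1 after anti-EpCAM is an example, with differences within cultures of only -0.01, 0.04 and 0.03. For SP minus non-SP after anti-EpCAM they were -0.26 to 0.55 for Aldh1a1, -0.17 to 0.70 for Aldh1a2, -0.28 to 0.49 for Aldh1a7, -0.34 to 0.38 for Aldh3a1, -0.039 to 0.053 for Aldh3a2, -0.012 to 0.19 for Aldh7a1 and -0.092 to 0.030 for Aldh9a1. For SP minus non-SP in untreated cells they were -0.52 to 0.44 for Aldh1a1, -0.40 to 0.0011 for Aldh1a2, -0.38 to 0.37 for Aldh1a3, -0.61 to 0.14 for Aldh1a7, -0.081 to 0.31 for Aldh1b1, -0.15 to 0.029 for Aldh2, -0.065 to 0.033 for Aldh3a2, -0.083 to 0.048 for Aldh7a1 and -0.027 to 0.21 for Aldh9a1. For anti-EpCAM minus untreated in SP cells they were -0.090 to 0.42 for Aldh1a2, -0.30 to 0.46 for Aldh1a3, -0.10 to 0.71 for Aldh1a7, -0.14 to 0.037 for Aldh2, -0.033 to 0.67 for Aldh3a1 and -0.16 to 0.048 for Aldh7a1. For anti-EpCAM minus untreated in non-SP cells they were -0.22 to 0.74 for Aldh1a1, -0.69 to 0.18 for Aldh1a2, -0.27 to 0.36 for Aldh1a7 and -0.41 to 0.32 for Aldh3a1. The other 14 kept their sign but also moved by over 1.5 times: in SP minus non-SP after anti-EpCAM 0.15 to 0.96 for Aldh1a3, 0.056 to 0.20 for Aldh1b1 and 0.044 to 0.19 for Aldh2, in SP minus non-SP in untreated cells -0.51 to -0.17 for Aldh3a1. The rest were in anti-EpCAM minus untreated in SP cells 0.094 to 0.85 for Aldh1a1, 0.22 to 0.47 for Aldh1b1, -0.16 to -0.073 for Aldh3a2 and -0.31 to -0.068 for Aldh9a1, and in anti-EpCAM minus untreated in non-SP cells -0.89 to -0.071 for Aldh1a3, 0.16 to 0.55 for Aldh1b1, -0.30 to -0.15 for Aldh2, -0.19 to -0.088 for Aldh3a2, -0.22 to -0.11 for Aldh7a1 and -0.11 to -0.0083 for Aldh9a1. Beyond the broken pairing in the fraction comparisons, the cause of these changes was not tested. With 3 arrays a group and 6 cultures of a single line, the intervals of the antibody differences reach past 2-fold for some members, among them Aldh1a1, Aldh1a2, Aldh1a3 and Aldh1a7.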
